A study of Mus musculus with 18 samples.

Results

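Ribosome biogenesis factors are the proteins that make ribosomal RNA and fold, modify and cut it into ribosomal subunits. A list of 54 such genes was followed here through all libraries of the series, and all 54 were found by symbol among the 24421 genes of both count tables. They comprise Myc, 8 genes of RNA polymerase I transcription, 4 nucleolar proteins, 7 proteins of small nucleolar ribonucleoproteins (snoRNPs), 17 factors of the small ribosomal subunit and 17 factors of the large subunit. The genes were listed by known function, not by their values, though earlier results of these data were known when the list was made.

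The study asked what loss of Pot1a, a protein that caps telomeres, does to bone marrow (BM) mesenchymal stem cells (MSCs). RNA was sequenced in 18 libraries, 3 in each of 6 groups. Of these, 12 were of BM MSCs from mice aged 4 to 6 months, Pot1a wt/wt or Pot1a fl/fl, that carried a flox-stop-flox tdTomato reporter. The remaining 6 came straight from the BM of 2-week-old mice, as sorted tdTomato+ cells. In culture, CD51+/PDGFRα+ cells were exposed to Cre-carrying vesicles for 12 h at 10 µL per well, the tdTomato+ cells were sorted after a further 48 h, and RNA was taken at week 1 and week 4. The libraries made from Pot1a fl/fl cells after Cre are labelled Δ/Δ. The sorted cells came from NG2-cre/loxp-tdTomato mice, titled Pot1a wt/Δ (wt/fl) or Pot1a Δ/Δ (fl/fl), in which the Cspg4 (NG2) promoter drives Cre in pericytes and other NG2+ cells throughout the body, so that the wt/fl controls also carry Cre and 1 floxed allele. The genotype field gives fl/fl for all 6 sorted libraries, and the titles were followed. The 3 libraries of a group came from separate mice by the sources, but none says which libraries share a mouse or a culture day across weeks or groups. P-values therefore measure the spread between these libraries.

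Ribosome synthesis begins in the nucleolus, where RNA polymerase I copies the ribosomal RNA genes into a long precursor. The snoRNPs then guide its chemical modification, and large complexes of assembly factors cut it and build the small and the large subunit around it. Myc is a transcription factor known to bind many genes of this pathway at E-boxes, and the pathway is known to be more active in growing cells.

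The E-box hexamer CACGTG, which reads the same on both strands, was searched from 250 bases before to 50 bases after the start of each gene in the RefSeq promoter sequences of GRCm38.p6. Of the 54 members, 45 had a promoter entry and 9 had none (Myc, Gnl2, Bop1, Rrs1, Fbl, Nol6, Npm1, Rrp12 and Tcof1). The hexamer was in at least 1 promoter of 11 of the 45 (24.4%) and of 2187 of all 27025 genes with an entry (8.09%). That wider set was not limited to genes tested here, so the 2 shares are of unlike sets. Its surroundings are shown 5′ to 3′ on the strand of the gene, with the hexamer in capitals, for the 4 of these 11 members that were lower at week 4 in libraries labelled Δ/Δ (Mybbp1a, Utp18, Tsr1 and Nop2, below) and for Rrn3, the member that held it at 2 places, with a log2 fold change of -0.02.
Mybbp1a (chr11:72441347-72441376, plus strand): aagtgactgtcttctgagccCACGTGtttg
Utp18 (chr11:93885769-93885798, minus strand): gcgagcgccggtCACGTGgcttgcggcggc
Tsr1 (chr11:74898092-74898121, plus strand): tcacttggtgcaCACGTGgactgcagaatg
Nop2 (chr6:125131811-125131840, plus strand): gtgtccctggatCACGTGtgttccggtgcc
Rrn3, first place (chr16:13780472-13780501, plus strand): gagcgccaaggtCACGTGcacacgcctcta
Rrn3, second place (chr16:13780639-13780668, plus strand): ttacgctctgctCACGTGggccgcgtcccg

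The cultured libraries held 12807832 to 90717232 counts and the sorted libraries 28918757 to 49992698. Among the members, the count in a library ranged from 74 (Taf1d) to 24194 (Myc), and all 54 passed the filter on low counts in both fits. Pot1a itself was not reduced under the Δ/Δ label. Its log2 fold change was -0.02 at week 1 (adjusted p = 0.987), 0.39 at week 4 (adjusted p = 0.0298) and -0.17 in sorted cells (adjusted p = 0.824). The count covers every exon and the floxed exons are not named in the sources used here, so it does not check the deletion, and every direction below follows the labels. The study examined the deletion by other assays, which are not analysed here. All 12 stromal markers were above 1 CPM in every group. In culture, summed markers of blood cells reached at most 20.5 CPM, those of red cells 1.05 CPM, those of megakaryocytes 9.27 CPM and those of endothelium 15.9 CPM. The replicate 1 libraries of wt/wt and Δ/Δ at week 4 deviated together from their groups (r = 0.636 across genes).

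At week 4, 27 of the 54 members were lower in libraries labelled Δ/Δ than in wt/wt and 0 were higher, against 6.46% of the 13169 genes tested that were lower and 9.2% that were higher (edgeR's quasi-likelihood test, Benjamini-Hochberg adjusted p under 0.05). The median log2 fold change of the members was -0.40, and that of all genes was 0.0024. The fold change was negative in 52 members, the exceptions being Nol8 at 0.09 and Ddx10 at 8.17e-04. In 34 members every library labelled Δ/Δ was below every wt/wt library, which held for 11.8% of all genes. Summed over the members, the level was 2996 ± 113 CPM (counts scaled by TMM, the trimmed mean of M-values, to a common library size in edgeR's usual unit) in wt/wt and 2316 ± 98.4 CPM in libraries labelled Δ/Δ (SD, n = 3 libraries each). In such bulk samples, fewer cells of a type and less RNA per cell cannot be told apart.

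The count of 27 fell to 17 without Δ/Δ replicate 2, to 17 without Δ/Δ replicate 3 and to 11 when only the 6 libraries of week 4 were fitted. Without the replicate 1 libraries of both genotypes at week 4 it was 28, of which 26 were among the 27. Of the 27 calls, 11 held under all 14 alternatives run for this comparison (Myc, Polr1b, Mybbp1a, Nop58, Rrp12, Bysl, Tsr1, Nop2, Bop1, Gnl3 and Mrto4), and 48 members had a negative fold change under all of them.

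**Figure D1:**
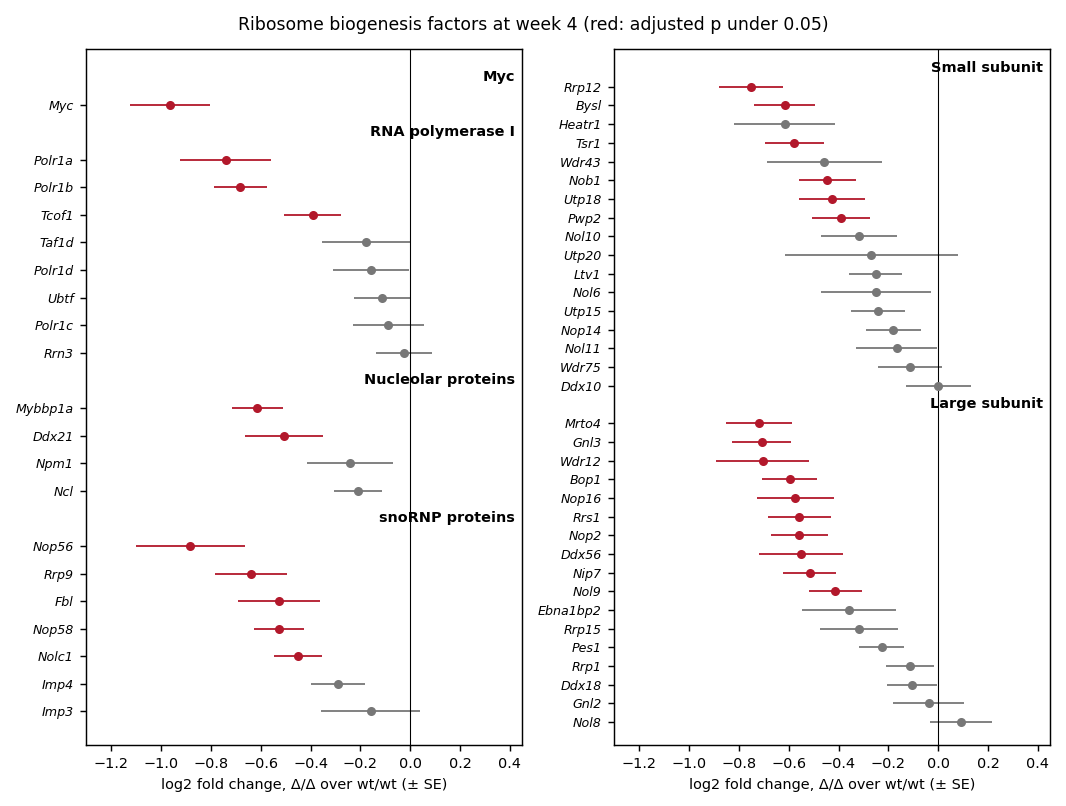
Log2 fold change at week 4 (Δ/Δ by label, over wt/wt) of the 54 members by role, with bars of 1 standard error. Red points are the 27 members with an adjusted p under 0.05, all to the left of 0, and Myc lies farthest to the left at -0.96.

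Myc had the largest fall of all members at week 4. The gene (chr15:61985391-61990374, GRCm38) was at 89.7, 80.7 and 71.9 CPM in the 3 wt/wt libraries and, under the Δ/Δ label, at 47.9, 33.5 and 42.6 CPM. The groups did not overlap, and the level fell by 48.7% (log2 fold change -0.96, SE 0.16, adjusted p = 0.0011). Of 10 other genes of the Myc network, 9 were tested at week 4. Of these, 1 was higher (11.1%, beside 9.2% of all genes) and 0 were lower. That gene was Mxi1, which competes with Myc for its partner Max and represses the same sites (log2 fold change 0.45, adjusted p = 0.0055). Mxi1 was at 60.005, 61.4 and 66.7 CPM in wt/wt and at 82.6, 87.2 and 87.8 CPM in libraries labelled Δ/Δ.

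Of the 8 genes of RNA polymerase I transcription, 3 fell at week 4 and their median log2 fold change was -0.17. Polr1a and Polr1b encode the largest and the second largest subunit of the enzyme, which together form its active site. Polr1b (chr2:129100995-129126594) was at 31.8, 39.1 and 36.7 CPM in wt/wt and at 21.97, 22.4 and 22.8 CPM in libraries labelled Δ/Δ, which lay close together and below all wt/wt libraries (log2 fold change -0.68, SE 0.11, adjusted p = 7.79e-04). Polr1a (chr6:71909053-71984935) was at 45.1, 71.0 and 61.7 CPM in wt/wt and at 27.1, 41.4 and 38.0 CPM in libraries labelled Δ/Δ. Its groups were separate, with replicate 1 the lowest of each (log2 fold change -0.74, adjusted p = 0.0145). Tcof1, whose product treacle couples polymerase I to early processing, was at 65.5, 64.2 and 60.5 CPM in wt/wt and at 53.5, 41.7 and 49.5 CPM in libraries labelled Δ/Δ. It fell by 23.8% (adjusted p = 0.0333), and that call held in 7 of the 14 alternatives.

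The factors that bring polymerase I to the promoter did not pass the test. Rrn3, the initiation factor that makes the enzyme competent to start, was at 109, 88.6 and 109 CPM in wt/wt and at 112, 97.6 and 92.1 CPM in libraries labelled Δ/Δ (log2 fold change -0.02, SE 0.11). Ubtf, which binds along the ribosomal RNA genes, was at 108, 102 and 91.2 CPM in wt/wt and at 103, 78.9 and 96.6 CPM in libraries labelled Δ/Δ (log2 fold change -0.11, SE 0.11). In both genes the groups overlapped. Polr1c and Polr1d, subunits shared with RNA polymerase III, and Taf1d, a subunit of the promoter selectivity factor, had log2 fold changes of -0.09, -0.16 and -0.18 without a call.

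Among the 4 nucleolar proteins, Mybbp1a and Ddx21 fell and Ncl and Npm1 did not pass the test. Mybbp1a, a Myb-binding protein of the nucleolus, was at 137, 162 and 152 CPM in wt/wt and at 94.1, 103 and 98.0 CPM in libraries labelled Δ/Δ. The groups were far apart for their spread (log2 fold change -0.61, SE 0.10, adjusted p = 0.0012). Ddx21, an RNA helicase of the nucleolus, was at 30.1, 37.9 and 45.0 CPM against 24.8, 30.5 and 24.7 CPM. Its groups overlapped, and the call (log2 fold change -0.50, adjusted p = 0.0467) held in 6 of the 14 alternatives. Ncl (nucleolin) was at 198, 223 and 212 CPM in wt/wt and at 178, 192 and 179 CPM in libraries labelled Δ/Δ (log2 fold change -0.21, SE 0.10, adjusted p = 0.194). Npm1 (nucleophosmin) was at 87.3, 113 and 105 CPM against 69.3, 102 and 87.1 CPM, and its groups overlapped (log2 fold change -0.24, SE 0.17, adjusted p = 0.423). Npm1 is known for processed pseudogenes, and how the counting treated reads shared with them is not given in the sources used here.

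Of the 7 snoRNP proteins, 5 fell at week 4, and the median log2 fold change of -0.53 was the lowest of the roles with more than 1 gene. Nop56 and Nop58 form the core of box C/D snoRNPs together with Fbl (fibrillarin), the enzyme that methylates ribosomal RNA. Nop56 (chr2:130274430-130279313) was at 135, 80.2 and 77.9 CPM in wt/wt and at 66.9, 43.5 and 48.4 CPM in libraries labelled Δ/Δ. Replicate 1 was the highest of both groups, yet all wt/wt libraries were above all of those labelled Δ/Δ (log2 fold change -0.88, SE 0.22, adjusted p = 0.015). Nop58 was at 61.5, 55.7 and 54.9 CPM against 40.5, 40.8 and 38.0 CPM, a narrower spread in both groups (log2 fold change -0.53, SE 0.10, adjusted p = 0.00294). Fbl was at 9.79, 14.7 and 15.03 CPM against 9.54, 8.64 and 9.37 CPM. Its wt/wt replicate 1 was only just above the libraries labelled Δ/Δ, and the call (log2 fold change -0.53, adjusted p = 0.0473) held in 4 of the 14 alternatives. Nolc1, a chaperone of snoRNPs, had a log2 fold change of -0.45 (adjusted p = 0.00639) and Rrp9, a protein particular to the U3 snoRNP, one of -0.64 (adjusted p = 0.00883). Imp3 and Imp4, which join U3 to the precursor, had -0.16 and -0.29 without a call.

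Of the 17 small subunit factors, 6 fell at week 4, with a median log2 fold change of -0.32. Rrp12, whose yeast counterpart helps export pre-ribosomes from the nucleus, was the lowest of them (chr19:41862851-41896173). It was at 25.03, 30.2 and 27.9 CPM in wt/wt and at 17.1, 17.6 and 14.9 CPM in libraries labelled Δ/Δ, so it fell by 40.6% without overlap (log2 fold change -0.75, SE 0.13, adjusted p = 0.00146). Bysl (bystin), needed for late maturation of the small subunit, was at 53.1, 44.5 and 49.9 CPM against 36.1, 27.0 and 32.9 CPM (log2 fold change -0.62, adjusted p = 0.00354). Tsr1, a GTPase-like protein of the late pre-small subunit, Nob1, the nuclease that makes the final cut of its RNA, and Utp18 and Pwp2, neighbours in an early processing complex, fell with log2 fold changes of -0.58, -0.44, -0.43 and -0.39. The calls of Utp18 and Pwp2 held in 4 and 5 of the 14 alternatives. Tsr1 shares 32.3% of its exon length with Srr on the other strand and Bysl 9.4% with Ccnd3, and the library kit does not record strand, so the reads of such partners cannot be told apart and these values are uncertain.

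The other 11 small subunit factors did not pass, among them the early-binding proteins Heatr1, Wdr43, Wdr75, Utp15 and Nol11. Heatr1 was at 38.2, 62.1 and 62.5 CPM in wt/wt and at 31.1, 41.1 and 34.5 CPM in libraries labelled Δ/Δ, where replicate 1 was the lowest of each group and the groups overlapped. Its log2 fold change of -0.62 had an SE of 0.20 and an adjusted p of 0.0605, and it passed in 6 of the 14 alternatives. Utp20, a very long scaffold protein, was spread from 22.4 to 57.4 CPM in wt/wt and from 24.3 to 55.4 CPM in libraries labelled Δ/Δ (log2 fold change -0.27, SE 0.35). Wdr43 was at -0.46 (SE 0.23), Utp15 at -0.24, Nol11 at -0.17 and Wdr75 at -0.11 on the log2 fold change scale. Nol10, Nol6, Ltv1 and Nop14, further factors of early and late assembly, lay between -0.32 and -0.18, and Ddx10, a helicase, was at 8.17e-04 (SE 0.13).

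Of the 17 large subunit factors, 10 fell at week 4, with a median log2 fold change of -0.52. Pes1, Bop1 and Wdr12 form the PeBoW complex, which is needed to process the RNA of the large subunit. Bop1 (chr15:76452989-76477277) was at 86.8, 87.3 and 85.1 CPM in wt/wt and at 61.6, 50.7 and 59.2 CPM in libraries labelled Δ/Δ, well apart (log2 fold change -0.60, SE 0.11, adjusted p = 0.00243). Wdr12 was at 54.6, 35.1 and 34.7 CPM against 31.2, 20.9 and 24.0 CPM, separate but with a high wt/wt replicate 1 (log2 fold change -0.70, adjusted p = 0.0216). Pes1 was at 94.5, 96.3 and 88.4 CPM against 85.6, 72.8 and 80.1 CPM. Its groups did not overlap, but the difference was small (log2 fold change -0.23, SE 0.09) and did not pass (adjusted p = 0.122).

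Gnl3 (nucleostemin), a nucleolar GTPase known from stem cells, was at 31.2, 26.7 and 29.0 CPM in wt/wt and at 18.7, 17.7 and 16.8 CPM in libraries labelled Δ/Δ (chr14:31012433-31019152). It fell by 38.8% with no overlap (log2 fold change -0.71, SE 0.12, adjusted p = 0.0012). Mrto4, whose yeast counterpart holds the place of a stalk protein until late assembly, was at 23.1, 18.5 and 17.3 CPM against 12.6, 12.3 and 10.8 CPM (log2 fold change -0.72, adjusted p = 0.00237), and 2 annotated pseudogenes carry its name. Nop2, a methyltransferase for the RNA of the large subunit, was at 92.6, 76.9 and 77.3 CPM against 61.7, 48.8 and 57.1 CPM (log2 fold change -0.56, adjusted p = 0.00487). The other calls were Nop16, Rrs1, Ddx56, Nip7 and Nol9, with log2 fold changes from -0.57 to -0.41. Ebna1bp2 and Rrp15, early-acting large subunit factors in yeast, were at -0.36 and -0.32 without a call, and Rrp1, Ddx18, Gnl2 and Nol8 lay between -0.11 and 0.09.

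**Figure D2:**
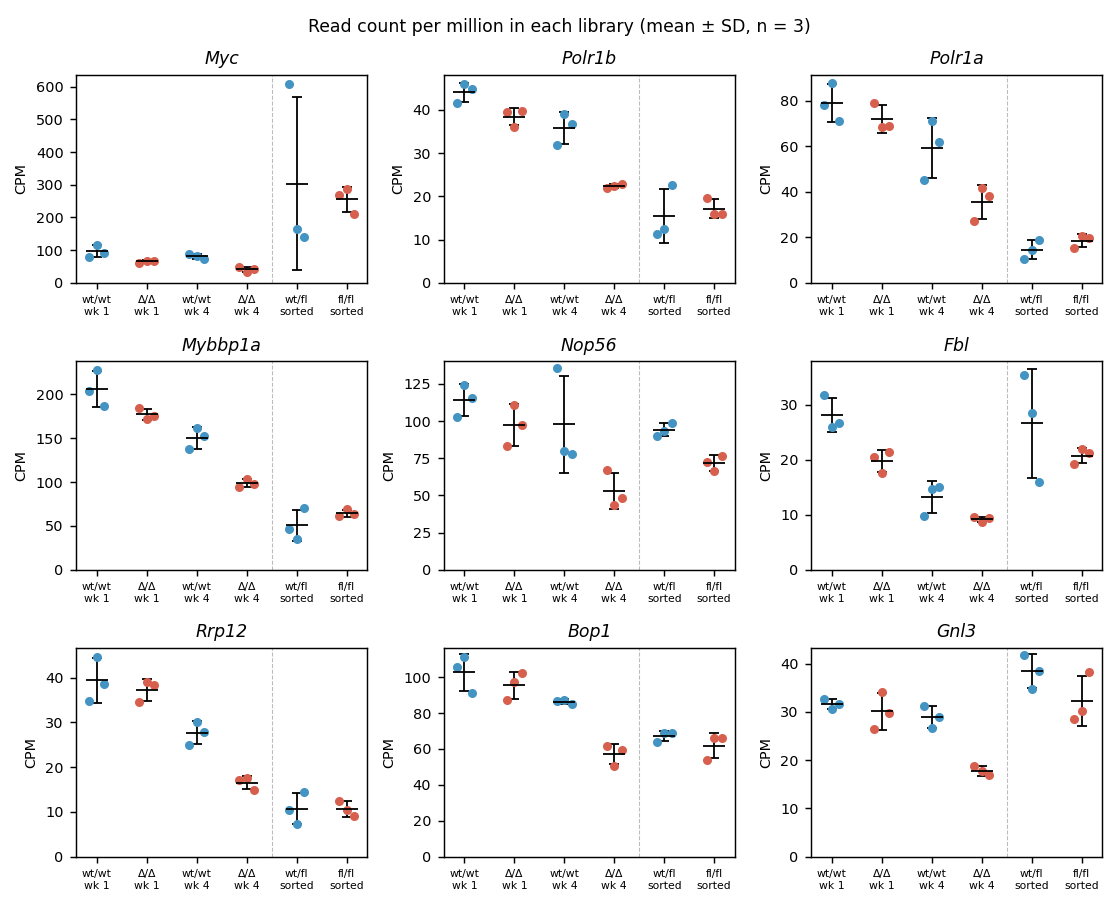
CPM (vertical axis, linear from 0) of 9 members in each of the 18 libraries by group, with the mean and SD of 3 libraries; blue marks wt/wt or wt/fl and red Δ/Δ or fl/fl, and culture and sorted cells (right of the dashed line) were scaled separately. At week 4 the red points of all 9 members lie below all blue points of that week, only just so in Fbl. In sorted cells 1 wt/fl library stands apart for Myc at 609 CPM.

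Several features the list was not chosen by were set beside the calls of week 4. Of the 7 members that hold snoRNA genes inside them (Taf1d, Ncl, Nop56, Nop58, Wdr43, Tsr1 and Gnl3), 4 were lower, with a median log2 fold change of -0.53, and of the other 47 members 23 were lower, with a median of -0.39. By length of the principal transcript, 11 of the 18 shortest, 7 of the 18 in the middle and 9 of the 18 longest members were lower. Of the 11 members with the E-box hexamer 4 were lower (median -0.29), and of the 34 with a promoter entry and no hexamer 17 were lower (median -0.40). No test was run on these splits.

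Of 76 further ribosome biogenesis genes outside the 54, 11 (14.5%) were lower and 0 higher at week 4, with a median log2 fold change of -0.18, beside the 6.46% of all genes that were lower. Rcl1, a protein of the small subunit processome (log2 fold change -0.85), Ppan, a large subunit factor (-0.85), and Dkc1, the pseudouridine synthase dyskerin that is also part of telomerase (-0.85), had the largest falls. Dkc1 was at 60.8, 45.0 and 42.8 CPM in wt/wt and at 30.5, 25.7 and 26.2 CPM in libraries labelled Δ/Δ. Of 20 cell cycle genes 0 passed edgeR's test at week 4, with a median log2 fold change of 0.07. An unadjusted p under 0.05 was seen in 7 of them, and the share of all genes at that threshold was not worked out. Their summed level was 670 to 908 CPM in wt/wt and 690.1 to 827 CPM in libraries labelled Δ/Δ. Of the 12 stromal markers, 5 were higher and 2 lower in the same comparison, and their part in the result was not tested.

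At week 1, edgeR's test called 0 of the 54 members, with 1.02% of all genes called. At an unadjusted p under 0.05 there were 14 members, and the share of all genes at that threshold was not worked out. DESeq2 called 4 of the 54 lower, beside 1.29% of all genes it called in that direction. The fold change was negative in 49 members, with a median log2 value of -0.19 beside -0.0036 for all genes, and in 26 members the libraries labelled Δ/Δ were all below wt/wt, beside 10.8% of all genes. Of the 76 further ribosome biogenesis genes, 70 were negative (median -0.18), and 27 were separate in that direction. Of the 20 cell cycle genes, 18 were negative (median -0.20), and 13 were separate in that direction. The shift at week 1 was thus not particular to the members. The 4 genes called by DESeq2 were Myc, Ncl, Nop58 and Nolc1, with log2 fold changes of -0.57, -0.33, -0.38 and -0.35 in that fit. Myc was at 79.9, 117 and 92.7 CPM in wt/wt and at 61.8, 67.1 and 67.0 CPM in libraries labelled Δ/Δ, separate but with a wide wt/wt group (edgeR adjusted p = 0.125). Fbl was at 31.7, 25.9 and 26.7 CPM against 20.4, 17.5 and 21.3 CPM, also without overlap (log2 fold change -0.51, SE 0.16, adjusted p = 0.182). Among the members that fell at week 4, Rrp12 and Gnl3 were at -0.08 and -0.07 at week 1, and in Gnl3 the 30.6 to 32.6 CPM of wt/wt lay within the 26.5 to 34.0 CPM of the libraries labelled Δ/Δ.

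The interaction term asked whether the genotype difference at week 4 departed from that at week 1. It was below 0 and passed for 2 of the 54 members (3.7%), near the 3.08% of all genes in that direction and below the 7.15% in either direction. An unadjusted p under 0.05 was seen in 10 members, and the share of all genes at that threshold was not worked out. Rrp12 had an interaction of -0.67 on the log2 scale (SE 0.18, adjusted p = 0.042) and Gnl3 one of -0.64 (SE 0.17, adjusted p = 0.0361). Of 18 alternatives, Rrp12 passed in 8 and Gnl3 in 6. Rrp12 had been at 34.8, 44.7 and 38.6 CPM in wt/wt at week 1 and at 34.5, 39.0 and 38.2 CPM in libraries labelled Δ/Δ, groups that overlapped. For Myc (-0.40), Fbl (-0.02), Nop58 (-0.15) and the other 49 members, a change of the genotype difference between the weeks was not shown.

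**Figure D3:**
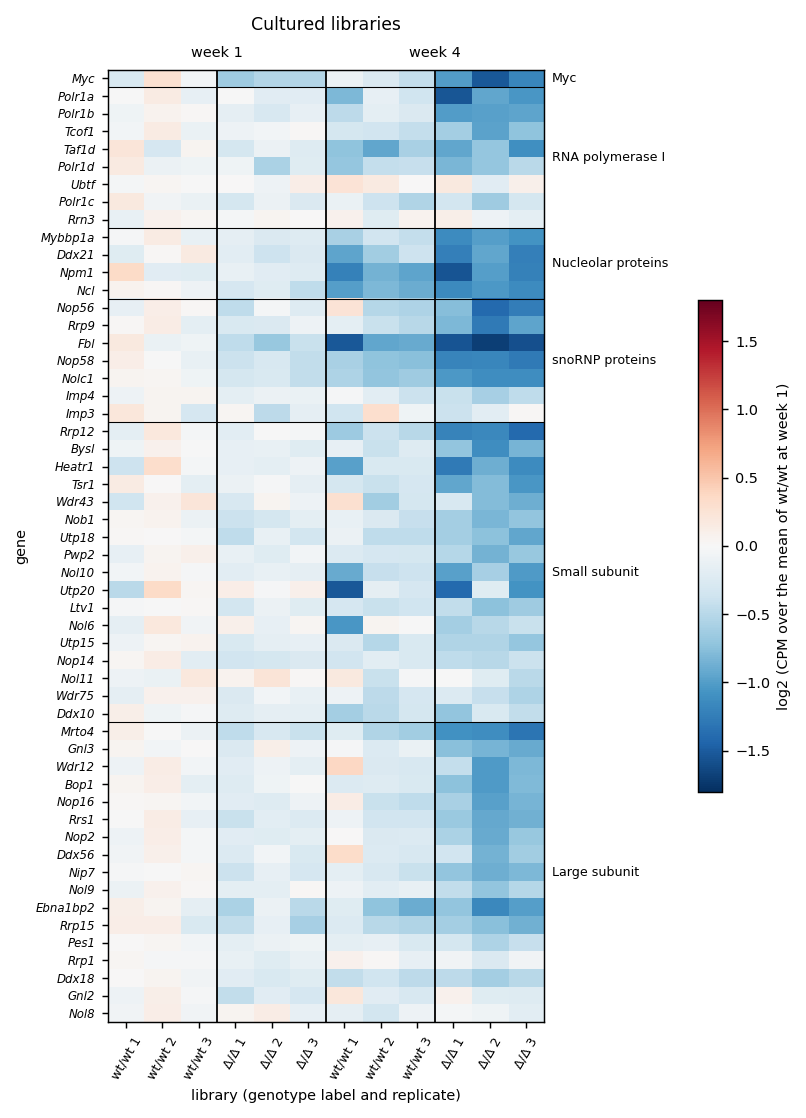
Log2 of CPM in each of the 12 cultured libraries over the mean of wt/wt at week 1, for the 54 members in rows by role; blue is lower and red higher. The 3 columns labelled Δ/Δ at week 4 are the bluest for most members, Fbl, Npm1 and Ncl are blue in all week 4 columns, and Rrn3, Ubtf and Rrp1 stay pale.

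Part of the members also fell between week 1 and week 4 in wt/wt cultures. There, 20 of 54 were lower at week 4 than at week 1 and 0 were higher, beside 16.1% of all genes lower and 17.9% higher, and the median log2 fold change was -0.29. The 20 calls became 12 without wt/wt replicate 2 of week 1 and 11 when only the 6 wt/wt libraries were fitted. In libraries labelled Δ/Δ, 37 were lower and 0 higher, beside 16.3% of all genes lower and 18.8% higher, with a median of -0.55. The wt/wt and Δ/Δ libraries are separate, and 18 members were called in both, which is 18 of the 20 in wt/wt and 18 of the 37 in libraries labelled Δ/Δ. The share of all genes called in both was not worked out, so this overlap cannot be read as particular to the members. The time comparisons share their week 4 libraries with the genotype comparison, so those counts are not independent of each other.

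All 4 nucleolar proteins fell over time in both genotypes. Ncl went from 410.0, 398 and 370.1 CPM to 198, 223 and 212 CPM in wt/wt, where all week 4 libraries were far below those of week 1 (log2 fold change -0.89, SE 0.10, adjusted p = 2.2e-05). In libraries labelled Δ/Δ it went from 317, 338 and 286 CPM to 178, 192 and 179 CPM (-0.78). Npm1 had log2 fold changes of -0.997 in wt/wt (adjusted p = 7.99e-04) and -1.05 in libraries labelled Δ/Δ, and Fbl of -1.08 (adjusted p = 2.69e-04) and -1.10. The difference between the genotypes in this fall was -0.05 (SE 0.24) for Npm1 and -0.02 (SE 0.23) for Fbl on the log2 scale. Fbl, at 25.9 to 31.7 CPM in wt/wt at week 1, was at most 15.03 CPM in any library of week 4.

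Other members were called over time only in libraries labelled Δ/Δ. Myc had a log2 fold change of -0.66 there (adjusted p = 0.00643) and of -0.26 in wt/wt (adjusted p = 0.237). Polr1a had -1.02 (adjusted p = 9.72e-04) and -0.41 (adjusted p = 0.0984), Bop1 -0.74 (adjusted p = 2.51e-04) and -0.25 (adjusted p = 0.0985), and Gnl3 -0.76 (adjusted p = 3.3e-04) and -0.13 (adjusted p = 0.439). Of these 4 genes, only Gnl3 had a difference between the genotypes that passed the interaction test, and it passed in 6 of 18 alternatives. Rrp12 fell under both labels, with log2 fold changes of -0.50 in wt/wt (adjusted p = 0.00884) and -1.18 in libraries labelled Δ/Δ (adjusted p = 2.42e-05). Rrn3, Ubtf, Rrp1 and Imp3 had values between -0.05 and 0.14 in both genotypes.

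The 20 cell cycle genes were all lower at week 4 in both genotypes, with median log2 fold changes of -2.00 in wt/wt and -1.77 in libraries labelled Δ/Δ, and their summed level went from 2018 to 2443 CPM at week 1 to 670 to 908 CPM at week 4. They moved in time with the members, and their part in the members' fall was not tested. Of the 76 further ribosome biogenesis genes, 13 fell and 1 rose in wt/wt, and 21 fell and 2 rose in libraries labelled Δ/Δ. The shares that fell were 17.1% beside 16.1% of all genes in wt/wt and 27.6% beside 16.3% in libraries labelled Δ/Δ. Mdn1, the giant ATPase that remodels the large subunit (-0.92 and -1.48), and Gar1, a partner of dyskerin in box H/ACA snoRNPs (-1.03 and -1.19), fell under both labels. Sbds, which releases an assembly factor from the large subunit, rose in libraries labelled Δ/Δ (0.70), and Ttf1, the terminator of polymerase I, rose in both (0.44 and 0.41).

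**Figure D4:**
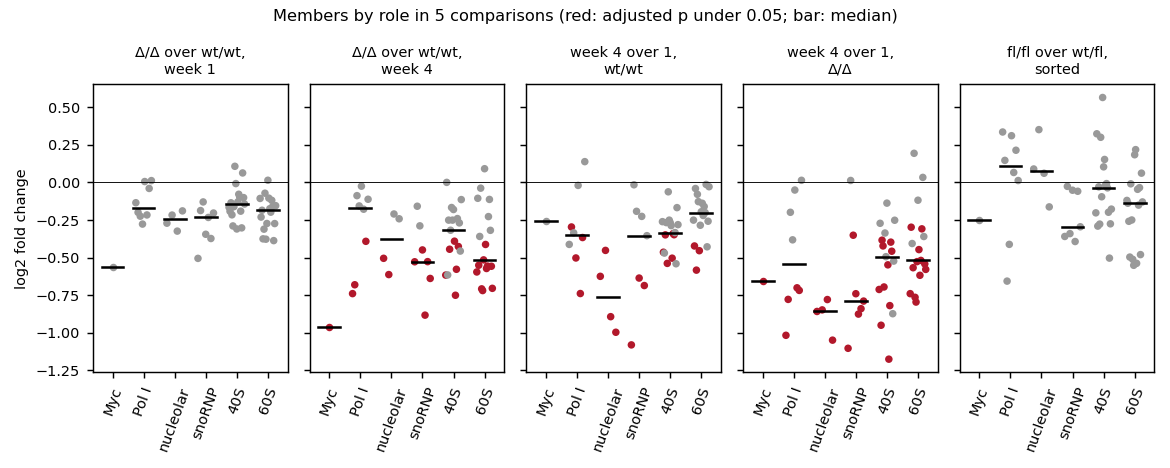
Log2 fold change of each member (points) by role (40S, small subunit; 60S, large subunit) in 5 comparisons, with black bars for the median of a role and red for an adjusted p under 0.05. Red points are seen at week 4 and over time, all below 0, and there are none at week 1 or in sorted cells.

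In sorted tdTomato+ cells of the young mice, edgeR's test called 0 of the 54 members between fl/fl and wt/fl. The same test called 0% of the 14605 genes tested. At an unadjusted p under 0.05 there were 6 members, and the share of all genes at that threshold was not worked out. DESeq2 called 0 of the 48 members to which it gave an adjusted p, beside 5.19% of all genes in either direction. The median log2 fold change of the members was -0.08 beside -0.0066 for all genes, 37 were negative, and in 9 members all fl/fl libraries were below all wt/fl libraries, beside 11.1% of all genes. In 1 member, Nol6, all fl/fl libraries were above, which held for 9.4% of all genes. Summed over the members, the level was 2931 ± 242 CPM in wt/fl and 2720 ± 152 CPM in fl/fl.

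Myc could not be resolved in the sorted cells. It was at 609, 164 and 139 CPM in wt/fl and at 269, 286 and 212 CPM in fl/fl, so that fl/fl lay between wt/fl replicate 1 and the other two (log2 fold change -0.25, SE 0.53, adjusted p = 0.898). Polr1a was at 10.4, 14.5 and 18.9 CPM against 15.2, 20.5 and 19.6 CPM (0.34, SE 0.27), and Rrp12 at 10.5, 7.30 and 14.4 CPM against 12.4, 10.3 and 8.98 CPM (-0.02, SE 0.30). In both genes the groups overlapped.

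The snoRNP proteins all had negative values in the sorted cells (7 of 7, median -0.29), while 6 of the 8 polymerase I genes were positive (median 0.11). Over all genes tested, 49.38% were positive. Of the 17 large subunit factors, 14 were negative and 3 positive (median -0.14). By length of the principal transcript, the median was -0.27 in the 18 shortest members, -0.07 in the middle 18 and 0.08 in the 18 longest. Whether the sign goes with role or with length was not tested. Of the snoRNP proteins, Imp3 (-0.03), Nolc1 (-0.05) and Nop58 (-0.06) were near 0 and took either sign under the alternatives. Among the positive polymerase I genes, Polr1b, Ubtf, Taf1d and Tcof1 also took either sign. Nop56 was at 90.1, 93.5 and 98.7 CPM in wt/fl and at 72.2, 66.1 and 76.7 CPM in fl/fl, without overlap (log2 fold change -0.39, SE 0.14, adjusted p = 0.337). Nip7, a small large subunit factor, was at 41.4, 46.0 and 35.9 CPM against 27.7, 28.0 and 28.5 CPM (-0.55, SE 0.17, adjusted p = 0.284). Nop16, another large subunit factor, was at 53.1, 61.1 and 68.8 CPM against 39.997, 40.7 and 45.2 CPM (-0.54, SE 0.16, adjusted p = 0.282). Nol6, a small subunit factor, was the member separate in the other direction, at 22.1, 15.6 and 15.8 CPM against 29.8, 26.2 and 23.2 CPM (0.57, SE 0.22, adjusted p = 0.365). These groups were separate, but none passed the adjusted test.

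The sorted libraries were less uniform than the cultures. The gate the study gives for MSCs leaves out CD45+, TER119+ and CD31+ cells. Summed blood cell markers were at 1950.2 to 3974 CPM, those of red cells at 182 to 355 CPM, those of endothelium at 1791 to 2629 CPM, and those of megakaryocytes at 1788 CPM in wt/fl replicate 2 and 945 CPM in fl/fl replicate 3 against 25.4 to 46.4 CPM in the other 4. With both megakaryocyte-rich libraries left out, 0 members were called and the median log2 fold change was -0.15. The main fit had already called 0% of all genes, so that count says little about the members. Genes of the Y chromosome summed to 171 and 191 CPM in wt/fl replicates 1 and 3 and to 0 in the other 4, so that sex and genotype cannot be fully told apart in this comparison. Without those libraries, the megakaryocyte-rich replicate 2 is the only wt/fl library left, and it is assumed to vary like fl/fl. Myc then had a log2 fold change of 0.64 instead of -0.25.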

How the data were processed

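Full-length cDNA libraries (SMART-Seq v4, strand not recorded) were sequenced on a NextSeq 500. The authors aligned reads to mm10 (GRCm38) using HISAT2 2.0.4, with gene counting by featureCounts 1.6.3. The deposited values are raw counts per gene symbol, whole numbers without normalization. The annotation and strand setting of the counting are not given in the sources used here. No library was left out, and replicates differed by more than counting error (chi-squared per degree of freedom 10.3 to 359.7 over 18 pairs).

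The analysis used edgeR 4.0.16 and limma 3.58.1 under R 4.3.3: filterByExpr with a minimum count of 10, TMM scaling, and the quasi-likelihood test with Benjamini-Hochberg adjustment over all genes tested at a threshold of 0.05. A single fit held the 12 cultured libraries, with 1 coefficient per group (13169 genes), and a further fit the 6 sorted libraries (14605 genes). Standard errors follow from the F statistic and the fold change. The fit was also run on simulated counts with planted changes larger than those of the members at week 4. Recovery of smaller changes was therefore not tested. With 3 libraries against 3, an exact permutation test cannot go below p = 0.1, so none is given. Locations and lengths are from GENCODE annotation of GRCm38 and promoters from RefSeq, GRCm38.p6.

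The members and all gene lists were chosen with earlier results of these data known. Values by library are given for 17 core members, for up to 2 called members per role and direction with the largest change, and for single genes on which a statement rests. Members shown for their values in sorted cells (Nip7, Nop16, Nol6) and Utp20 were added after values were seen. For libraries with the same number, deviations from the group means were correlated across genes. The correlation was 0.152, 0.22 and 0.209 for wt/wt between weeks 1 and 4, all above the chosen threshold of 0.1. Libraries with unlike numbers were not correlated and no label pairs them, so this does not establish a pairing. In the other comparisons at least 1 pair was below 0.1. Alternatives were DESeq2 1.42.0, RLE scaling, library size only, no filter, at least 10 counts in every library, a replicate block, fits of only the libraries compared and leaving out each library.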

Additional observations from a re-analysis of the deposited data

Results flagged for a closer look

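For 2 of the 54 members (3.7%) the genotype difference itself differed between the weeks of culture by the interaction test of edgeR across the 13169 genes. That is near the 3.08% of all genes in the same direction and below the 7.15% in either, so the count is not particular to the members. The log2 difference of libraries labelled Δ/Δ from wt/wt at week 4, minus that at week 1, was -0.67 for Rrp12 (adjusted p = 0.042) and -0.64 for Gnl3 (adjusted p = 0.0361). All 3 libraries labelled Δ/Δ were below all wt/wt libraries at week 4 in both genes, and the groups overlapped at week 1. Of the 18 alternatives run, Rrp12 passed in 8 and Gnl3 in 6.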

How the results depend on the processing

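No fold change of a named gene changed sign with a call, and the scaling alternatives moved the median of all genes by less than 0.1 on the log2 scale. The count of members lower at week 4 (27) was 11 with only the 6 libraries compared and 17 to 25 with single libraries left out. With the replicate number as a block it was 23, of which 22 were among the 27. The fall over time in wt/wt (20) was called for 11 members with only the 6 libraries compared and for 12 to 26 with single libraries left out. With the block it was called for 20. With the replicate number as a block within wt/wt alone, which was chosen after seeing the data, it was called for 14, of which 12 were among the 20. In libraries labelled Δ/Δ the count of 37 ranged from 29 to 38 with single libraries left out and was 37 with the block. The interaction count (2) was 1 by library size only, 0 without a filter, 1 with the replicate block and 0 to 4 with single libraries left out. At week 1 the count of 0 became 4 with DESeq2 and was 0 under all other alternatives. In sorted cells it was 0 under the alternatives that kept more than 1 wt/fl library, and the main fit there called 0% of all genes. Fits without the replicate 1 libraries of week 4, without the megakaryocyte-rich libraries and without the libraries with Y-linked reads were added after seeing the data. Of the named genes' fits under alternatives, 95 lost a call, 16 gained one and 1575 did neither. Those 1575 include genes called in neither the main fit nor the alternative, whatever their sign, so they do not count calls that held. The depth of 12807832 counts in the shallowest library and 3 libraries a group bound the precision of these values. CPM are relative to the library, so a change of total RNA per cell would not be seen.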
